A study of Mus musculus with 40 samples.

Results

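This set of 10 genes encodes proteins that move calcium out of the cytosol, and it was followed in the brain of ageing and vitamin E deficient mice: 4 plasma membrane pumps, 2 pumps of the endoplasmic reticulum, 1 pump of the Golgi apparatus and 3 sodium-calcium exchangers. They were Atp2b1, Atp2b2, Atp2b3, Atp2b4, Atp2a2, Atp2a3, Atp2c1, Slc8a1, Slc8a2 and Slc8a3. Their probes were those whose gene name on the array equals one of these symbols, which gave 10 of 36406 gene names and 18 of 55681 probes. The set was chosen by measured values of these arrays, but which values entered the choice is not recorded. The 3 comparisons in which Atp2b2 stood out, with age in both regions and in the cortex of Ttpa-/- mice on the deficient diet, were taken as those used. Their values are therefore descriptions and no test is drawn from them, and whether other comparisons also entered the choice is not known.

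RNA of the cerebral cortex and the cerebellum was measured on 40 Agilent arrays of 1 colour, with 4 mice in each of 10 groups. All mice were of the C57Bl/6 background. Each region had young wild-type mice (2 months) and aged ones (29 months) fed the normal diet, which held 36 mg of alpha-tocopherol per kg. It further had 3 groups aged 29 months: wild-type mice fed the vitamin E deficient diet, and Ttpa-/- mice fed that diet or a supplemented one holding 600 mg of alpha-tocopherol per kg. Ttpa encodes the transfer protein that keeps alpha-tocopherol, the main form of vitamin E, in the circulation and Ttpa-/- mice lack it. No group of Ttpa-/- mice was fed the normal diet and no group of wild-type mice the supplemented one, so the supplemented group differs from each wild-type group in genotype and diet together.

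A neuron keeps its resting calcium low with pumps and exchangers that divide the work. The plasma membrane pumps, encoded by Atp2b1 to Atp2b4, spend ATP to extrude calcium with high affinity, while the sodium-calcium exchangers, encoded by Slc8a1 to Slc8a3, use the sodium gradient to clear larger loads quickly. The sarco-endoplasmic pumps encoded by Atp2a2 and Atp2a3 refill the endoplasmic reticulum, and the pump encoded by Atp2c1 carries calcium and manganese into the Golgi apparatus. Atp2b2 is abundant in cerebellar Purkinje cells, and mice without it are ataxic and deaf. Atp2a3 is known in the brain chiefly from Purkinje cells.

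Of the genes, 6 were measured by 2 probes, Atp2b4 by 3, and Atp2a3, Atp2c1 and Slc8a2 by 1. The probes are 60 bases long, and parts of those on which the results turn are shown first, 5′ to 3′ as on the array, with positions in the mouse genome as the array files give them (build mm9). Whether a probe lies in a coding or an untranslated part was not analysed here. The Atp2b2 probes, of which the first is called the upstream one here, lie 2508 bases apart both in the genome and along the transcript. The upstream probe, A_51_P256384, lies at chr6:113698347-113698406 on the minus strand, and the downstream probe, A_55_P1971938, at chr6:113695839-113695898. The first 30 bases of the upstream probe are shown, and of the downstream probe the stretch of 30 bases around a run of 12 alternating A and C, in capitals.
Atp2b2 upstream: gggaaccagacctttctctggcagccatgc
Atp2b2 downstream: ctcttccatACACACACACACctacacagg

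Slc8a3 had a bright probe and a dim one. The bright probe, A_55_P1982747 at chr12:82299156-82299215 on the minus strand, ends in 30 bases of alternating C and A, shown because its signal followed other probes with such runs rather than the second probe of the gene.
Slc8a3 repeat: CACACACACACACACACACACACACACACA

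The dim Slc8a3 probe, A_55_P2160528 at chr12:82317709-82317768, and the brighter Slc8a1 probe, A_55_P2080758 at chr17:81844837-81844896, both on the minus strand, target related stretches of these paralogues. Their best alignment without gaps spans 51 bases, of which 38, or 74.5%, are identical and printed in capitals.
Slc8a1: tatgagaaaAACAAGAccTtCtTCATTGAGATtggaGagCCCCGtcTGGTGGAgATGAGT
Slc8a3: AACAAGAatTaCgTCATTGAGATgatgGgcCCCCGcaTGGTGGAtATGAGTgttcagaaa

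The probes of Atp2b1 and Atp2b3 are shown because those of each gene lie far apart or in different transcripts and did not always move together. The Atp2b1 probe A_66_P138001 at chr10:98431670-98431729 on the plus strand begins at base 562 of its transcript, and the other, A_65_P10351, at base 4127. The Atp2b3 probes lie on the plus strand of chromosome X. A_55_P2013184 at chrX:70816247-70816306 was designed on the RefSeq transcript, and A_55_P2013178 at chrX:70803404-70803463 on a cDNA clone that the RefSeq table used here does not list. The first 30 bases of the 3 probes follow.
Atp2b1: cagatccacggatgcattacggaaaataca
Atp2b3 transcript: ttttaatgaacactagttctaccatgtgtt
Atp2b3 clone: caaaattgctctccggatttcggaggcctg

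The values are log2 signals relative to the 75th percentile of the array, so that 0 is a signal equal to that percentile, and a difference of 1 is a 2-fold difference. Levels of different probes cannot be compared with each other. Of the 18 probes, 15 were well above background on all 40 arrays. The others were the third Atp2b4 probe, A_55_P1985268 (36 arrays), the dim Slc8a3 probe (29 arrays) and the second Slc8a1 probe, A_55_P2292435 (23 arrays). Between 51.4% and 61.4% of all probes were well above background on an array. Ttpa itself was read by 2 probes. Probe A_66_P128446 exceeded background on all 4 arrays of each wild-type cerebellar group and on 0 or 1 of 4 in the Ttpa-/- groups, whereas in the cortex neither probe was above background on more than 1 array of any group, so that the genotype could be checked in the cerebellum only. The other probe exceeded background on 1 array in all, of Ttpa-/- cerebellum on the deficient diet. Where either probe lies relative to the deleted part was not analysed here. The regions were told apart by their markers: all 9 Purkinje cell and all 7 granule cell markers tested were higher in the cerebellum and all 8 cortical projection neuron markers higher in the cortex at both ages.

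The strongest contrasts among the 10 genes were between the regions. Atp2a3 was higher in the cerebellum by 4.42 ± 0.13 (SE) on the log2 scale in wild-type mice of 2 months and by 4.00 ± 0.13 at 29 months, whereas Atp2b4, Atp2b1, Slc8a1 and Slc8a2 were higher in the cortex. By limma with Benjamini-Hochberg adjustment over all probes tested, 11 of 17 probes differed at an adjusted p below 0.05 at 2 months and 13 of 18 at 29 months. Of all probes tested, 62.5% and 56.4% did so, close to the count among these genes at 2 months. Both counts among these genes include the second Slc8a1 probe, A_55_P2292435, tested only because it exceeded background on all 4 cortical arrays. Its place in them, and in the counts of non-overlap and 1.5-fold differences below, follows in part from that filter and is no support. The count at 29 months also includes the upstream Atp2b2 probe, on arrays of the comparisons taken to have chosen the set. The regions lay on different slides in both comparisons, so slide and region cannot be told apart in them. In a bulk sample, fewer cells of a type and less RNA per cell cannot be told apart either.

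Of the endoplasmic reticulum pumps, Atp2a3 had cortical log2 signals of -2.15, -2.08, -2.04 and -2.44 and cerebellar ones of 2.25, 2.29, 2.31 and 2.11 in the mice of 2 months. Over all 10 groups the 20 cortical arrays ran from -2.75 to -1.93 and the 20 cerebellar arrays from 1.58 to 2.33, with no overlap. The slide that held arrays of both regions, the cortex of Ttpa-/- mice on the deficient diet and the cerebellum of young wild-type mice, showed the same order, with cortical values of -1.98, -1.99, -2.01 and -1.98. The adjusted p was 1.56e-23 at 2 months and 3.06e-22 at 29 months. Atp2a2, the general pump of the reticulum, was higher in the cerebellum by 0.52 ± 0.07 at 2 months (adjusted p = 5.85e-08 by limma) and by 0.44 ± 0.07 at 29 months (adjusted p = 1.79e-06 by limma) by its brighter probe. Its second probe, A_52_P168097, gave -0.00 ± 0.15 and 0.16 ± 0.15 and did not pass.

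The plasma membrane pumps went different ways. Atp2b4, a widely expressed member, was higher in the cortex by each of its 3 probes, with cerebellum minus cortex at -1.71 ± 0.15, -2.31 ± 0.15 and -2.98 ± 0.21 at 2 months and -1.52 ± 0.15, -2.76 ± 0.15 and -3.07 ± 0.21 at 29 months. The sizes depended on the processing. Over the alternative runs described below, the smallest were -1.37, -1.62 and -1.86 at 2 months. At 29 months they were -1.22, -1.80 and -1.80, and all passed the test. Atp2b1, the pump found in nearly all cells, was higher in the cortex by both probes, at -1.61 ± 0.08 and -1.52 ± 0.11 at 2 months and -1.64 ± 0.08 and -1.68 ± 0.11 at 29 months. The 20 cortical and 20 cerebellar arrays did not overlap for any of these 5 probes. For what share of all probes they lay apart was not counted. Between the 4 and 4 arrays of young mice, 11 of 17 probes of the gene set did not overlap, beside 58.1% of all probes. At 29 months it was 12 of 18, beside 56.4%.

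Atp2b3, found mainly in neurons, depended on the probe. The probe of the RefSeq transcript was higher in the cerebellum by 1.16 ± 0.14 and 0.91 ± 0.14 at the 2 ages, with all cortical arrays between 2.18 and 3.23 and all cerebellar arrays between 3.47 and 4.31. The probe of the cDNA clone differed by -0.11 ± 0.12 at 2 months, which did not pass, and was lower in the cerebellum by -0.46 ± 0.12 at 29 months (adjusted p = 0.00095 by limma). Atp2b2 differed little between the regions. Its upstream probe was 0.30 ± 0.14 higher in the cerebellum at 2 months (adjusted p = 0.0528 by limma) and 0.37 ± 0.14 at 29 months (adjusted p = 0.0197 by limma), and the downstream probe 0.12 ± 0.11 and 0.08 ± 0.11, neither past the test. The 29-month call was lost when arrays were scaled by their median (0.35), when both probes were averaged (0.23), and without the first or second cerebellar array (0.32 and 0.34) or the first cortical one (0.33). The arrays of both ages also gave the Atp2b2 differences taken to have chosen the set, so nothing is drawn from these p-values.

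Among the exchangers, Slc8a1, the form also dominant in heart, was higher in the cortex by -1.41 ± 0.19 and -1.80 ± 0.19 (cerebellum minus cortex at 2 and 29 months, brighter probe), and Slc8a2, the main form of the brain, by -0.80 ± 0.09 and -1.41 ± 0.09. For the brighter Slc8a1 probe and for Slc8a2 the arrays of the 2 regions did not overlap over all groups. Those of Slc8a2 ran from 4.98 to 5.28 in the cortex and from 3.09 to 4.44 in the cerebellum. For the dim Slc8a1 probe they overlapped, at -4.39 to -3.00 in the cortex and -7.08 to -4.23 in the cerebellum. The dim Slc8a1 probe was above background on 0 to 2 of 4 arrays in each cerebellar group, and differed by -1.75 ± 0.46 at 2 months, with 1 of 4 cerebellar arrays above background, and by -2.06 ± 0.46 at 29 months, with 2 of 4. It was tested through the cortex alone, so these values are descriptions. Over the alternative runs described below, its smallest differences at these ages were -0.76 and -0.57. Slc8a3, found in brain and skeletal muscle, differed by -0.03 ± 0.29 and 0.05 ± 0.29 by the bright probe, and Atp2c1, the Golgi pump, by -0.07 ± 0.10 and -0.06 ± 0.10, none of which passed the test. The probes of 2-month-old mice past a 1.5-fold difference were 10 of 17, beside 38.4% of all probes tested, and 10 of 18 at 29 months, beside 33.6%. Whether the share among these genes was larger than over all probes was not tested. The markers of Purkinje and granule cells moved the same way as Atp2a3, as did 3 of 5 astrocyte markers at 2 months and 4 of 5 at 29 months. So did all red blood cell markers tested, 2 at 2 months (median 2.14) and 3 at 29 months (median 2.34). Those of cortical neurons moved the same way as Atp2b1, Atp2b4, Slc8a1 and Slc8a2, and so did all 5 microglial markers (median -2.02 at 2 months and -1.09 at 29 months) and 7 of 10 striatal neuron markers at 2 months and 5 of 10 at 29 months. Of the striatal markers, 2 of 10 went the other way at 29 months, higher in the cerebellum. The 2 platelet and T cell markers tested were lower in the cerebellum at 2 months. At 29 months 1 of 3 was lower and 1 higher. Of 7 choroid plexus markers, 1 was higher at 2 months, and 3 were lower and 1 higher at 29 months. The part of these cells in the differences was not tested.

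**Figure D1:**
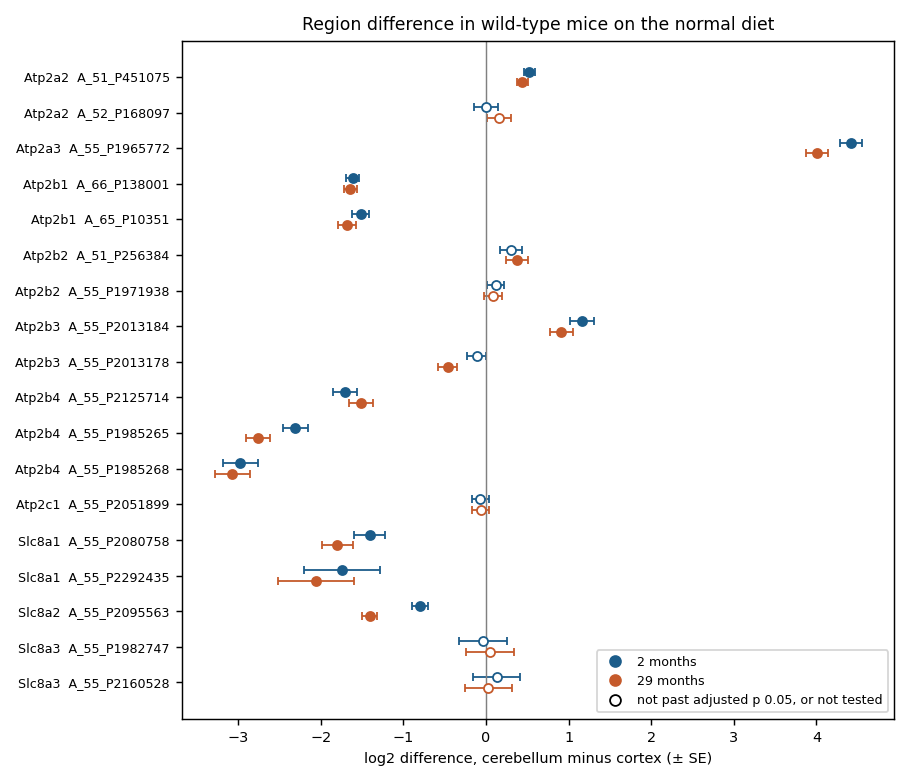
Difference between cerebellum and cortex in wild-type mice on the normal diet for the 18 probes, on the log2 scale, with points for the estimate at 2 months (blue) and 29 months (orange), bars for the SE, and open points for differences not past an adjusted p of 0.05 or not tested. Atp2a3 lies at 4.42 and 4.00, Atp2b4 between -3.07 and -1.52, and the 2 Atp2b3 probes lie apart from each other.

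For Atp2b2 the order of the groups was shared only in part by its 2 probes. In the cortex the upstream probe read 5.78, 5.87, 5.73 and 6.40 in wild-type mice of 2 months and 5.21, 5.35, 5.31 and 5.54 at 29 months on the normal diet. It read 5.15, 5.05, 4.99 and 5.40 in wild-type mice fed the deficient diet, 5.32, 4.74, 5.07 and 5.08 in Ttpa-/- mice on the supplemented diet and 5.05, 4.54, 4.65 and 4.69 in Ttpa-/- mice on the deficient diet. The young arrays lay above those of 29 months without overlap, while each later neighbour in this order overlapped the one before it. Ttpa-/- mice on the deficient diet did not overlap wild-type mice of their age on the normal diet.

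The log2 change with age was -0.59 ± 0.14 in the cortex, from a mean of 5.94 ± 0.31 (SD, n = 4) to 5.35 ± 0.14, and Ttpa-/- mice on the deficient diet were another -0.62 ± 0.14 below wild-type mice of their age on the normal diet. These are 2 of the differences taken as those that chose the gene set. The fourth young cortical array, at 6.40, stood above the other 3. In the cerebellum the upstream probe read 6.16, 6.42, 6.24 and 6.16 at 2 months and 5.89, 5.83, 5.66 and 5.54 at 29 months, a change of -0.52 ± 0.14, and the other 3 groups lay between 5.26 and 5.75 and overlapped each other.

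The downstream probe moved less. It differed by -0.33 ± 0.11 with age in the cortex and by -0.36 ± 0.11 in the cerebellum. Between Ttpa-/- mice on the deficient diet and wild-type mice in the cortex it differed by 0.05 ± 0.11, where the upstream probe differed by -0.62. In the cortex its values at 29 months were 5.09 to 5.34 in wild-type mice fed the normal diet and 5.15 to 5.51 in Ttpa-/- mice on the deficient diet, so the groups overlapped. Over the 40 arrays the 2 probes correlated at r = 0.72, and after subtraction of the group means at 0.73, so they agreed on which arrays of a group were high and differed on how far the groups lay apart. The arrays share their scaling and region, and no p is attached.

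**Figure D2:**
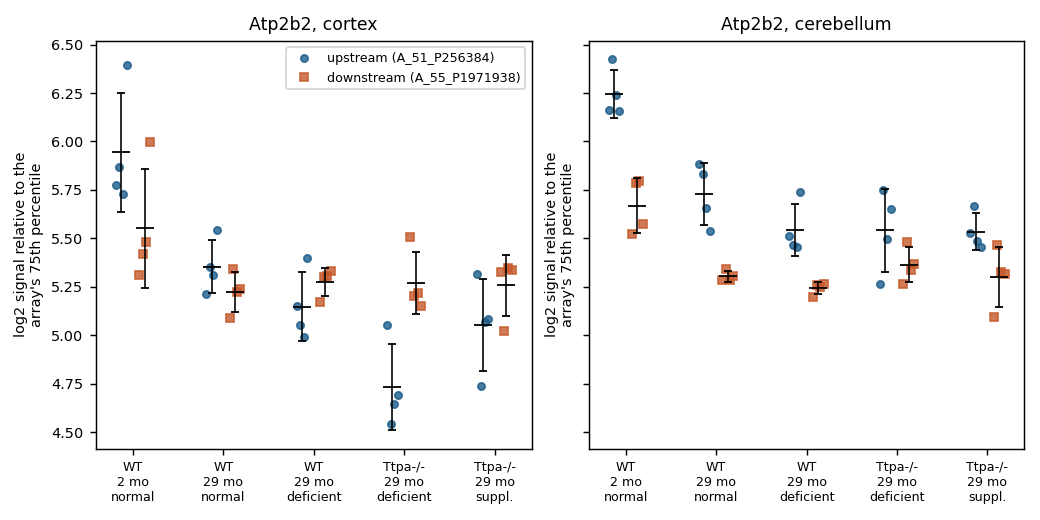
Log2 signal of both Atp2b2 probes relative to the array's 75th percentile, by group in the cortex (left) and the cerebellum (right). Each point is 1 array of 1 mouse, the bar is the mean and the whisker the SD of 4 arrays. In the cortex the upstream probe (circles) has its highest mean, 5.94, in young mice and its lowest, 4.73, in Ttpa-/- mice on the deficient diet, while the downstream probe (squares) stays between 5.22 and 5.28 in the 4 groups of 29 months.

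The other comparisons of the upstream Atp2b2 probe in the cortex shared arrays with those taken to have chosen the set. Ttpa-/- mice on the deficient diet were -0.41 ± 0.14 below wild-type mice on the same diet and -0.32 ± 0.14 below Ttpa-/- mice on the supplemented diet. The downstream probe differed by -0.01 ± 0.11 and 0.01 ± 0.11. In the cerebellum no comparison of genotype or diet was taken as one that entered the choice, but whether any did is not known. The aged wild-type arrays on the normal diet there also belonged to the ageing comparison. The upstream probe differed by -0.19 ± 0.14 between Ttpa-/- mice on the deficient diet and these wild-type mice (interval of 2 SE, -0.46 to 0.08). Between the diets within Ttpa-/- mice it differed by 0.01 ± 0.14 (-0.27 to 0.28). Neither passed the test.

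The 5 genes whose probes followed the upstream Atp2b2 probe most closely, by r over the 40 arrays after each region's mean was subtracted and among 24802 probes above background throughout, were Camkk2 (0.910), Tmem132a (0.907), 4930429B21Rik (0.903), Plcb4 (0.873) and Ptn (0.871). Camkk2 encodes a calcium-calmodulin dependent kinase kinase and Plcb4 a phospholipase C that is abundant in the cerebellum. The 29-month minus 2-month difference of Camkk2 was -0.57 in the cortex and -0.62 in the cerebellum, on the arrays that also chose Atp2b2. Among the other probes of the 10 genes, the Atp2b3 clone probe came closest, at 0.783, above the downstream Atp2b2 probe at 0.759, and the brightest Atp2b4 probe was at -0.364.

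With age in the cortex the upstream Atp2b2 probe, whose value was taken to have chosen the set, was the 1 of 17 probes past an adjusted p of 0.05, a count that is no test here and stands beside 4.15% of all probes. The ages did not overlap for 5 probes of 5 genes, beside 14.0%, and nothing is read from either count. The median change over the 17 probes was -0.16, and over all probes tested -0.03. The other 4 probes without overlap were the brighter Atp2a2 probe (-0.16 ± 0.07), the Atp2b1 probe A_66_P138001 (-0.21 ± 0.08), the Atp2b3 clone probe (-0.24 ± 0.12) and Slc8a2 (-0.12 ± 0.09), each lower at 29 months. Both ages lay on 1 slide here. Of 10 striatal neuron markers, 4 fell with age in the same cortical samples and their median change was -0.67, with summed signals of 78.5 to 97.9 times the 75th percentile at 2 months and 44.3 to 57.3 at 29 months. Their part in the Atp2b2 difference was not tested.

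In the cerebellum, as in the cortex, 15 of 17 probes were lower at 29 months, with a median change of -0.28 beside -0.01 over all probes tested. At an adjusted p below 0.05 there were 8, all lower, beside 11.0% of all probes in either direction and 4.07% lower. Without 1 array there were 3 to 7, with 3 without the first or the fourth aged array and 4 and 5 without the second and the third young one. Since Atp2b2 in this comparison belonged to the values taken to have chosen the set, the counts are no test and are given without a reading. Slc8a2 read 4.40, 4.44, 4.30 and 4.42 at 2 months and 3.61, 3.74, 3.65 and 3.65 at 29 months, a change of -0.73 ± 0.09 with no overlap. In the cortex the same probe read 5.15, 5.19, 5.15 and 5.28 at 2 months and 5.11, 5.09, 5.02 and 5.04 at 29 months.

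The Atp2b3 clone probe was lower with age in the cerebellum by -0.59 ± 0.12 and the transcript probe by -0.28 ± 0.14. Atp2b1 was lower by -0.24 ± 0.08 and -0.33 ± 0.11 and Atp2a2 by -0.25 ± 0.07 by its brighter probe. The Atp2b4 probes gave 0.05 ± 0.15, -0.50 ± 0.15 and -0.25 ± 0.21, and so disagreed. Atp2a3 (-0.38 ± 0.13) and the brighter Slc8a1 probe (-0.52 ± 0.19) were lower without passing the test, and Atp2c1 (0.03 ± 0.10) and the bright Slc8a3 probe (-0.07 ± 0.29) lay near 0. The 2 ages lay on different slides, so slide and age cannot be told apart. In the same arrays 3 of 7 granule cell markers fell, with a median of -0.41, and 4 of 5 microglial markers rose, with a median of 0.84. No Purkinje cell marker of 9 changed (median -0.18). The part of these cells in the pump values was not tested.

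In Ttpa-/- mice on the deficient diet against wild-type mice of 29 months on the normal diet, the values in the cortex are descriptions again, since that of Atp2b2 was taken to have chosen the set. At an adjusted p below 0.05 there were 4 of 18 probes, all lower, beside 19.0% of all probes, and nothing is read from the count. Scaled by the array median, none of the 4 passed and the single probe that did was higher, A_55_P2125714 of Atp2b4 at 0.47. The 4 were Atp2b2 upstream (above), the Atp2b3 clone probe (-0.42 ± 0.12), Atp2c1 (-0.35 ± 0.10) and the Atp2b1 probe A_66_P138001 (-0.32 ± 0.08). The Atp2b4 probes were higher, by 0.40 ± 0.15, 0.32 ± 0.15 and 0.26 ± 0.21, without passing. In the same arrays 3 of 10 striatal neuron markers were higher, with summed signals of 64.8 to 75.9 times the 75th percentile. Of 5 astrocyte markers 2 were lower. Of 8 genes on the Purkinje cell list, read here in the cortex, 3 were lower and 1 was higher. The part of the cells behind these lists in the pump values was not tested.

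In the cerebellum the same comparison was tested, and 2 of 17 probes passed, beside 13.2% of all probes. Atp2a2 rose by 1 of its 2 probes. Its brighter probe read 4.86, 5.03, 5.0 and 5.02 in wild-type mice fed the normal diet and 5.17, 5.32, 5.32 and 5.26 in Ttpa-/- mice on the deficient diet, a change of 0.29 ± 0.07 with no overlap (adjusted p = 0.00546 by limma). The second Atp2a2 probe differed by 0.03 ± 0.15, and the mean of both by 0.16, which did not pass (adjusted p = 0.264 by limma). The Atp2b3 clone probe fell, by -0.35 ± 0.12 (adjusted p = 0.0391 by limma), with values of -0.22, -0.18, -0.16 and 0.04 in wild-type mice and -0.67, -0.10, -0.49 and -0.68 in Ttpa-/- mice, which overlapped at 1 array. The mean of both Atp2b3 probes differed by -0.28 and passed (adjusted p = 0.0212 by limma). The call of the clone probe was lost without any array but the second Ttpa-/- one, with changes of -0.48 to -0.29 over the 8 fits. With median scaling the calls of the brighter Atp2a2 probe and of the clone probe were lost.

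Set against wild-type mice on the deficient diet as well, Ttpa-/- cerebellum on that diet had 4 of 16 probes past the test, beside 12.8% of all probes. The brighter Atp2a2 probe rose by 0.34 ± 0.07 (adjusted p = 0.0014 by limma), from 4.78, 4.82, 5.01 and 5.11, without overlap. Atp2c1 rose by 0.32 ± 0.10 (adjusted p = 0.0373), from 2.40, 2.53, 2.81 and 2.90 to 2.95, 2.96, 2.79 and 3.24, with overlap. The Atp2b3 clone probe fell by 0.42 ± 0.12 on the log2 scale (adjusted p = 0.0149) and Slc8a2 fell by 0.36 ± 0.09 (adjusted p = 0.0104), from 4.04, 3.79, 3.79 and 3.75 to 3.43, 3.83, 3.60 and 3.09. Scaling by the array median raised the median of all probes by 0.18 in this comparison, and under it the Atp2b3 and Slc8a2 calls were lost, at -0.24 and -0.18, while Atp2a2 rose by 0.51. The mean of both Atp2a2 probes did not pass (0.16), whereas that of both Atp2b3 probes did (-0.33, adjusted p = 0.0082 by limma). The Slc8a2 call was lost without the fourth Ttpa-/- array (-0.23) or the first wild-type one, that of Atp2b3 without the first or the fourth Ttpa-/- array or the second wild-type one, and that of Atp2c1 without any array but the third Ttpa-/- one and the third and the fourth wild-type ones.

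On the supplemented diet the Ttpa-/- cerebellum read 5.10, 5.29, 5.13 and 5.19 for the brighter Atp2a2 probe, again above all wild-type arrays of 29 months on the normal diet, at 0.20 ± 0.07 (adjusted p = 0.0491 by limma). It was the single probe of 17 to pass there, beside 14.7% of all probes. That call was lost without any array but the first Ttpa-/- one, at 0.16 to 0.22 over the 8 fits, and with median scaling. Across the 5 cerebellar groups, this probe thus had high means in young wild-type mice (5.17, 5.20, 5.34 and 5.20) and in both Ttpa-/- groups and lower ones in both aged wild-type groups. The supplemented Ttpa-/- arrays, from 5.10, overlapped those of wild-type mice on the deficient diet, up to 5.11. The second Atp2a2 probe had a mean of 0.28 in both genotypes on the deficient diet. In the cortex the 4 groups of 29 months had means of 4.52 to 4.57 by the brighter probe. The difference between the regions in the genotype effect on the deficient diet was 0.32 ± 0.10 for this probe, with an adjusted p of 0.0836 by limma. None of the 18 probes passed by limma in any of the 4 tests of a difference between the regions in an effect of genotype or diet. Of all probes, 1.15% passed for the genotype on the deficient diet, 0.0567% for the diet within Ttpa-/- mice, 0.0126% for the deficient diet in wild-type mice and 1.19% for the supplemented Ttpa-/- mice against wild-type mice. At an unadjusted p below 0.05 there were, in the same order, 5 of the 18 beside 18.9% of all probes, 3 beside 16.5%, 0 beside 14.4% and 0 beside 14.3%. Each of these cerebellar comparisons set groups on different slides against each other, so slide and genotype cannot be told apart.

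The cortex gave 4 of 18 probes past the test between the genotypes on the deficient diet, beside 13.0% of all probes. The upstream Atp2b2 probe (above) was 1 of them, on Ttpa-/- arrays that had also chosen it, and it no longer passed without any array but the first Ttpa-/- one and the third wild-type one (-0.52 to -0.33 over the 8 fits), with median or quantile scaling, or without the filter on dim probes. In every tested comparison of genotype or diet, the calls of single probes of these genes were lost when the 2 groups were fitted alone. Atp2b1 fell by its probe A_66_P138001, from 3.98, 3.81, 3.88 and 3.52 in wild-type mice to 3.35, 3.16, 3.33 and 3.31 in Ttpa-/- mice, a change of -0.51 ± 0.08 with no overlap (adjusted p = 0.000225 by limma). The other Atp2b1 probe differed by -0.15 ± 0.11. The call was kept without any 1 array, with median and quantile scaling and for the mean of both probes (-0.33). The Atp2b1 probe at base 562 of the transcript thus moved where the one at base 4127 did not pass. Neither Atp2b3 probe passed in this comparison, but the mean of both did (-0.26, adjusted p = 0.0348 by limma).

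Atp2b4 rose in the cortex of Ttpa-/- mice on the deficient diet. Its probe A_55_P1985265 read -0.48, -0.27, -0.39 and -0.44 there, -1.06, -1.01, -0.94 and -0.71 in wild-type mice on that diet and -1.17, -0.85, -1.22 and -0.78 in Ttpa-/- mice on the supplemented diet. The difference was 0.53 ± 0.15 against wild-type mice (adjusted p = 0.0172 by limma) and 0.61 ± 0.15 against the supplemented diet (adjusted p = 0.00656 by limma), and neither pair of groups overlapped. The first call was lost with median scaling (0.52) and without the first wild-type array (0.49). Against wild-type mice the other 2 probes were 0.33 ± 0.15 and 0.16 ± 0.21 higher and did not pass, nor did the mean of the 3 (0.34, adjusted p = 0.0921 by limma), whereas against the supplemented diet that mean passed (0.47, adjusted p = 0.0191 by limma). The brightest probe, A_55_P2125714, rose against the supplemented diet as well, from -0.62, -0.48, -0.56 and -0.42 to 0.01, -0.02, -0.05 and -0.26, by 0.44 ± 0.15 (adjusted p = 0.0404 by limma). The third probe was 0.38 ± 0.21 higher and did not pass.

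These 2 probes were the ones of 18 past the test between the diets within Ttpa-/- cortex, beside 14.1% of all probes, and the difference of A_55_P1985265 was past 1.5-fold, beside 3.31%. Its adjusted p stayed below 0.05 without any 1 of the 8 arrays, at 0.54 to 0.68, but the difference was under 1.5-fold without the second array on the deficient diet or the first or the third on the supplemented one. The call of A_55_P2125714 was lost without any but the fourth array on the deficient diet. For Atp2b3 neither probe passed between these diets, but the mean of both did (-0.32, adjusted p = 0.00964 by limma). Wild-type mice on the normal diet read -0.65, -1.02, -0.61 and -0.58 for A_55_P1985265, so the Ttpa-/- arrays on the deficient diet were above all other aged cortical arrays, while young wild-type cortex, at -0.74, -0.44, -0.46 and -1.04, overlapped them. In the cerebellum A_55_P1985265 differed by -0.10 ± 0.15 between the genotypes on the deficient diet, and the test of the difference between the regions, at -0.63 ± 0.21, did not pass (adjusted p = 0.105 by limma). The cortical groups compared lay on different slides, so slide and condition cannot be told apart.

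Atp2a3 rose between the genotypes on the deficient diet in the cortex as well, by 0.47 ± 0.13 (adjusted p = 0.0199 by limma), from -2.75, -2.49, -2.64 and -1.95 to -1.98, -1.99, -2.01 and -1.98. The wild-type arrays on the normal diet read -2.24, -2.17, -2.01 and -2.13. The call was lost with normexp background correction, which gave 0.23, with median scaling, and without the first Ttpa-/- array or the first or the third wild-type one.

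**Figure D3:**
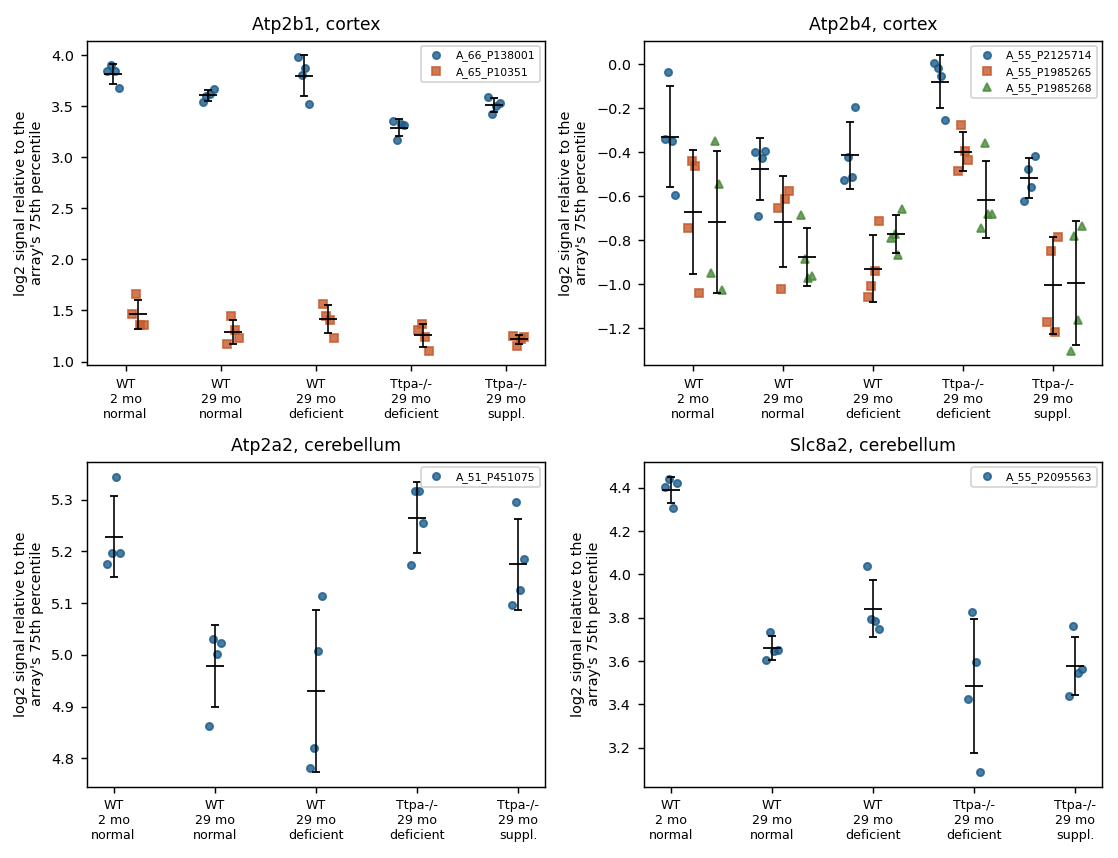
Log2 signal relative to the array's 75th percentile for Atp2b1 (2 probes) and Atp2b4 (3 probes) in the cortex and for the brighter Atp2a2 probe and Slc8a2 in the cerebellum. Points are arrays, bars means and whiskers SDs of 4 arrays. By their means, the upper Atp2b1 probe is lowest and Atp2b4 highest in Ttpa-/- cortex on the deficient diet, the brighter Atp2a2 probe is lower in both aged wild-type groups than in the others, and Slc8a2 is highest in young cerebellum.

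The remaining comparisons moved none of the genes past the test. The deficient diet in wild-type mice gave 0 of 17 probes in the cortex, beside 0.340% of all probes, and 0 of 17 in the cerebellum, beside 4.58%, by limma. At an unadjusted p below 0.05 there were 3, beside 15.6% of all probes, and 1, beside 21.0%. The lowest cortical value was that of Atp2c1, -0.38 ± 0.10, whose arrays read 2.84, 2.89, 2.79 and 2.89 on the normal diet and 2.23, 2.43, 2.68 and 2.55 on the deficient diet, without overlap (adjusted p = 0.0816 by limma). For the upstream Atp2b2 probe the interval of 2 SE was -0.48 to 0.07 in the cortex and -0.46 to 0.09 in the cerebellum. The cerebellar groups shared a slide.

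Ttpa-/- mice on the supplemented diet had 0 of 17 probes past the test against wild-type mice on the normal diet in the cortex, beside 0.212% of all probes by limma, and 1 at an unadjusted p below 0.05, beside 8.51%, the upstream Atp2b2 probe at -0.30 ± 0.14 (interval of 2 SE, -0.57 to -0.03). Against wild-type mice on the deficient diet, on 1 slide, there were 0 of 17 in the cortex beside 0.0492%, and 3 at an unadjusted p below 0.05, beside 9.35%. Between the diets within Ttpa-/- cerebellum, also on 1 slide, there were 0 of 17 beside 0.767%, and 0 at an unadjusted p below 0.05, beside 11.6%. These designs of 4 against 4 arrays limit what could be seen, and values that missed the threshold are not shown to be equal.

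**Figure D4:**
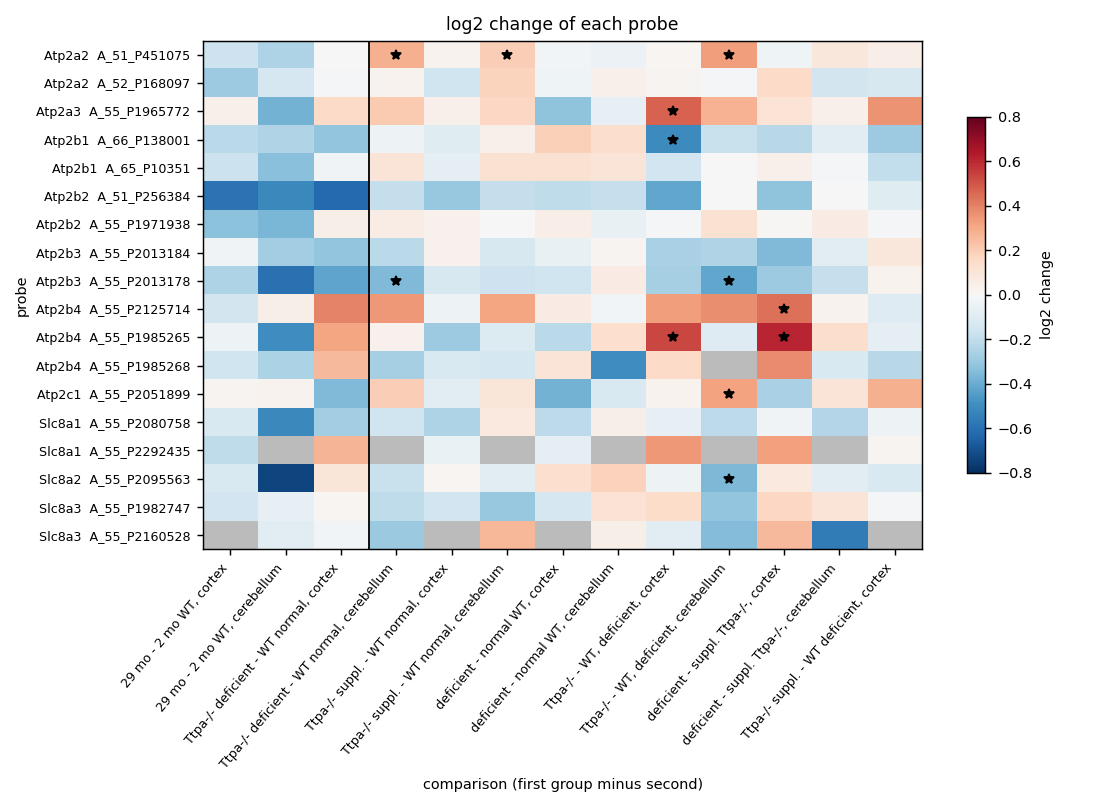
Log2 change of each of the 18 probes (rows) in 13 comparisons (columns, first group minus second), in blue where lower and red where higher with full colour at 0.8, and grey where a probe was not tested. Stars mark an adjusted p below 0.05 among the columns right of the line, Atp2b2 left unmarked, and the 3 columns left of the line include the values taken as those that chose the set. The brighter Atp2a2 probe is marked in 3 cerebellar columns and Atp2b4 in 2 cortical ones.

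The bright Slc8a3 probe differed in no comparison and varied widely within groups. In young cortex it read 4.61, 4.85, 5.72 and 4.95, in aged wild-type cortex on the normal diet 4.53, 4.78, 5.55 and 4.67, and on the deficient diet 4.16, 4.70, 5.55 and 4.59. The repeat of C and A in its sequence, shown above, occurred as a run of at least 12 bases in 62 of 55589 probes, or 0.112%, and 57 of these were above background on all 40 arrays. The mean of the other 56 rose and fell with the Slc8a3 probe at r = 0.93 over 40 arrays and at 0.95 after subtraction of group means. Over all probes above background throughout, the median of that within-group r was -0.12 and the 95th percentile 0.54. The downstream Atp2b2 probe, whose run has 12 bases, had a within-group r of 0.05. The dim Slc8a3 probe, without a run, correlated with the bright one at -0.28 over 40 arrays. Whether the bright probe reads Slc8a3 was not tested, and its values are given here as those of the probe.

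**Figure D5:**
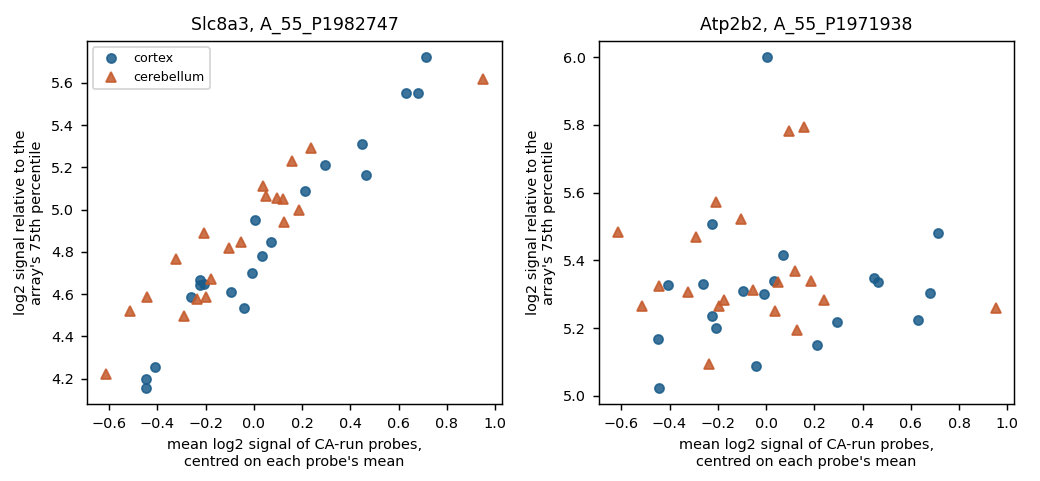
Log2 signal relative to the array's 75th percentile of the bright Slc8a3 probe (left) and the downstream Atp2b2 probe (right) against the mean of the 57 probes with a run of alternating C and A, each of these centred on its own mean. Each point is 1 of 40 arrays, cortex as circles and cerebellum as triangles. The Slc8a3 probe rises along with the mean, and the Atp2b2 probe does not.

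Probes of the other genes agreed to different degrees. The within-group r of 2 probes of a gene over the 40 arrays was 0.39 for Atp2b1, 0.29 for Atp2a2, 0.37 for Slc8a1, 0.40 to 0.49 for the pairs of Atp2b4, -0.29 for Atp2b3 and -0.35 for Slc8a3. Over all arrays, where the difference between regions enters, Atp2b1 reached 0.98 and Atp2b4 0.95 to 0.98, and Atp2b3 stayed at -0.27.

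Other genes of calcium handling were counted from a list of 49 genes, of which 45 had a probe: buffers, channels and receptors of the reticulum, chaperones, potassium-dependent exchangers and partners of the pumps. Between the regions at 2 months 19 were higher in the cerebellum and 13 lower, of 41 tested, beside 29.9% and 32.6% of all probes. The largest were Calb2, which encodes the buffer calretinin (5.44 ± 0.26), Casq2, a calcium-binding protein of the reticulum (4.95 ± 0.24, above background on 2 of 4 cortical arrays), and Pvalb, the buffer parvalbumin (3.56 ± 0.20). Slc24a4, a potassium-dependent exchanger (-3.25 ± 0.28), the scaffold Dlg4 (-1.11 ± 0.12) and Calm3, a calmodulin gene (-1.02 ± 0.09), were lower.

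With age in the cerebellum 2 of 42 rose, Slc24a4 by 1.13 ± 0.28 and Itpr3, a receptor that releases calcium from the reticulum, by 0.96 ± 0.08, both past 1.5-fold, and 2 fell, beside 6.94% of all probes higher and 4.07% lower. In Ttpa-/- mice on the deficient diet, the chaperones of the reticulum past 1.5-fold were Hspa5 in the cerebellum and Calr in the cortex. Canx and Pdia3 from the list were not. Against wild-type mice on the normal diet, 0 of 42 genes were past 1.5-fold in either region. At an adjusted p below 0.05, 5 rose and 5 fell in the cortex in that comparison, beside 19.0% of all probes. The cerebellum had 3 higher and 0 lower, beside 13.2%. Against wild-type mice on the deficient diet, 6 rose and 4 fell at an adjusted p below 0.05 in the cortex. That stood beside 13.0% of all probes in either direction. In the cerebellum 3 rose and 0 fell, beside 12.8%. Between the diets in Ttpa-/- cortex 5 rose and 4 fell, beside 14.1%. Hspa5 rose by 0.74 ± 0.11 against wild-type mice on that diet and by 0.72 ± 0.11 against the supplemented diet in the cerebellum, with adjusted p of 1.94e-05 and 0.00022 by limma. Calr, which encodes calreticulin, rose by 0.65 ± 0.11 and 0.60 ± 0.11 in the cortex in the same 2 comparisons, together with Slc9a3r2, a scaffold that binds Atp2b pumps, by 0.63 ± 0.12 and 0.63 ± 0.12, and Slc9a3r1, by 0.60 ± 0.11, against the supplemented diet. In the comparison of diets within Ttpa-/- cerebellum, Hspa5 was 1 of 42 genes to pass, beside 0.767% of all probes. The medians of the list lay between -0.09 and 0.09 in all 15 comparisons, and those of all probes tested between -0.03 and 0.01.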

How the data were processed

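RNA of cortex and cerebellum had been hybridised to 40 Agilent 1-colour arrays, 8 to each of 5 slides. The authors scanned the arrays and deposited the Feature Extraction output, whose processed signal is an intensity, background-subtracted by that software (version 10.7.3.1 per the file headers, 10.1.1.1 in the submitters' processing notes), and normalized log2 values. From the deposited intensity, control spots and outlier-flagged spots were left out, spots of a probe were averaged, and log2 of the signal was taken relative to the 75th percentile of its array (365 to 925 on the linear scale), for 55589 of 55681 probes. These values differed from the log2 values of the authors by a median of 0.000915 after centring.

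Groups came from the labels, and the 4 samples of a group are separate mice. The 10 group means were fitted over 40 arrays (limma 3.58.1 in R 4.3.3, data.table version 1.17.8), with Benjamini-Hochberg adjustment over probes that exceeded background on all 4 arrays of either compared group. A probe passed at an adjusted p below 0.05. The number of arrays limits the precision. The genes, gene lists and tests were chosen with earlier results of these data known. Named genes were the 10 genes, the 5 probes most correlated with Atp2b2 and up to 3 in each direction past 1.5-fold from the list of calcium genes. Alternatives were another background correction, scaling, filter or test, array weights, a variance trend, the compared groups alone, the mean of a gene's probes, a replicate block, and each array left out. Whether same-numbered cortical and cerebellar arrays came from the same mouse is not given in the sources used here. Their deviations from the group means correlated at r above 0.1 in 13 of 20 pairs (-0.16 to 0.63), among them all 4 of Ttpa-/- mice on the deficient diet. Shared mice are thus not settled. The arrays were fitted as independent, and any pairing of cortex and cerebellum was left out of the fit. Among the alternatives the replicate number was a block common to all 10 groups. It joins different mice under 1 number, so it cannot show what pairing by mouse would change. Of 15 comparisons, 4 lay within a slide. The scripts were tested on simulated data.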

Additional observations from a re-analysis of the deposited data

Results flagged for a closer look

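In 11 of 180 sets of 4 arrays (1 probe in 1 group), 1 array lay apart from the other 3 by Dixon's test at the 95% level, beside about 1 in 20 by chance. All values are log2 signals relative to the array's 75th percentile. In wild-type mice on the normal diet, the brighter Atp2a2 probe was high in the third young cerebellum (5.34, the others 5.17 to 5.20) and low in the first aged one (4.86, the others 5.0 to 5.03), where Atp2c1 was high (2.85, the others 2.76 to 2.77). The Atp2b3 transcript probe was low in the fourth young cortex (2.52, the others 3.04 to 3.11). The second aged wild-type cortex on the normal diet was low for the Atp2b4 probes A_55_P2125714 (-0.69, the others -0.43 to -0.39) and A_55_P1985265 (-1.02, the others -0.65 to -0.58).

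In wild-type mice on the deficient diet, the second Atp2a2 probe was low in the third cortex (-0.094, the others 0.086 to 0.12), the downstream Atp2b2 probe in the first cortex (5.17, the others 5.30 to 5.33), and Slc8a2 was high in the first cerebellum (4.04, the others 3.75 to 3.79). In Ttpa-/- cortex, the downstream Atp2b2 probe was low in the second array on the supplemented diet (5.02, the others 5.33 to 5.35), and the Atp2b4 probe A_55_P1985268 high in the second on the deficient diet (-0.36, the others -0.74 to -0.68).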

How the results depend on the processing

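KO stands for Ttpa-/-, WT for wild type on the normal diet, and the comparisons are those of the report. Of 330 values (a probe in a comparison), none of the 50 past the test changed sign under an alternative run, whereas 118 of the 280 that did not pass did so under at least 1, 46 of them under median scaling. The 1 that passed with its sign changed was the dim Slc8a3 probe between the regions at 29 months (0.03, and -0.28 with normexp background correction). Median scaling moved the median of all probes by over 0.1 for the deficient diet in WT cerebellum (-0.18), the genotypes in cerebellum (0.18), the diets within KO cortex (0.11), KO supplemented against deficient WT in cortex (-0.12) and the differences between regions in the wild-type diet effect (-0.27) and the genotype effect (0.19). Of the values past the test outside the comparisons taken to have chosen the set, under alternatives, 664 stayed on their side of the threshold and 93 no longer passed. Between the regions the counts of probes past the test ran from 11 to 13 at 2 months and from 12 to 14 at 29 months over all alternatives. The other counts were small and moved easily, and the cause was not tested. A block on the slide could not be fitted for comparisons between slides and was not run. With the replicate number as a block, the counts between the regions were 11 and 13 as without it, the ageing count in the cerebellum was 9 in place of 8 and the other counts stayed within 1.5 times. As that block is common to all groups, these counts do not address pairing by mouse.

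Fitting the compared groups alone gave 0 for ageing in cortex (1 in the full fit), 4 for ageing in cerebellum (8), and 0 for KO deficient against WT in cerebellum (2), KO supplemented against WT in cerebellum (1), the genotypes on the deficient diet in cortex (4) and cerebellum (4) and the diets within KO cortex (2). Median scaling gave 0, 3, 0, 0 and 1 for the first 5 of these and 1, higher, for KO deficient against WT in cortex (4, all lower). The methods' t-test after Benjamini-Hochberg adjustment gave 0 for ageing in cortex, 1 and 0 for the KO deficient and supplemented cerebellum, 0 for the genotypes in each region and 1 for the diets within KO cortex. Unadjusted, it gave 6 for ageing in cortex, 8 for KO deficient against WT in cortex, 3 for the deficient diet in WT cortex and 3 in cerebellum, 4 for KO supplemented against WT in cerebellum and 4 for KO supplemented against deficient WT in cortex.

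At an unadjusted p below 0.05 limma gave 5 and 7 for ageing and KO deficient against WT in cortex, 3 and 1 for the deficient diet in WT cortex and cerebellum, 1 and 2 for KO supplemented against WT in cortex and cerebellum, 7 for the genotypes in cerebellum, 7 for the diets within KO cortex, 3 for KO supplemented against deficient WT in cortex, and 5 and 3 for the differences between regions in the genotype effect and in the diet effect within KO. Array weights gave 2 for ageing in cortex, 7 for KO deficient against WT in cortex, 3 for the deficient diet in WT cortex, 2 for KO supplemented against WT in cerebellum, 7 for the diets within KO cortex, 1 for KO supplemented against deficient WT in cortex and 2 for the regional difference in the genotype effect. Without the filter on dim probes KO deficient and supplemented against WT in cerebellum gave 1 and 0 and the diets within KO cortex 1. Quantile normalization gave 1 for the deficient diet in WT cerebellum and 1 for the regional difference in the genotype effect, and a variance trend 1 for the latter.

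When single arrays were left out, the counts ran from 0 to 2 for ageing in cortex, 3 to 7 for ageing in cerebellum, 3 to 6 for KO deficient against WT in cortex and 1 to 3 in cerebellum, 0 to 3 for the deficient diet in WT cortex, 0 to 1 for KO supplemented against WT in cerebellum, 1 to 3 and 1 to 4 for the genotypes in cortex and cerebellum, 1 to 4 for the diets within KO cortex, 0 to 2 for KO supplemented against deficient WT in cortex, 0 to 2 for the regional difference in the genotype effect, 11 to 13 and 12 to 13 between the regions at 2 and 29 months, and stayed at 0 in the others.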
